A study of Mus musculus with 2 samples.

Results

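The genes of the RANKL axis and of bone resorption described here number 10. They are followed across the cells of the mouse knee joint, out of 32285 genes in the count matrix. They were chosen by symbol: Tnfsf11, Tnfrsf11b, Tnfrsf11a, Nfatc1, Ocstamp, Dcstamp, Oscar, Acp5, Ctsk and Atp6v0d2, and all 10 were found. The joints came from pups of both sexes at postnatal day 7, either wild type or Col12a1 knockout, which lack collagen XII, a collagen that binds along fibrils. Skin and paws were removed and the hindlimb knees were digested in collagenase II at 4 mg/mL for 6 h. The promoter or allele design of the knockout, and the number of animals pooled, are not given in the sources used here.

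Osteoclasts are large multinucleated cells of the monocyte and macrophage lineage that dissolve bone. Their formation needs RANKL, the ligand encoded by Tnfsf11, which binds the receptor RANK (Tnfrsf11a) on precursors, while the secreted decoy receptor osteoprotegerin (Tnfrsf11b) captures the ligand. RANK signalling induces the transcription factor Nfatc1, which drives genes for cell fusion (Dcstamp, Ocstamp), the costimulatory receptor Oscar, and the resorption proteins Acp5 (tartrate-resistant acid phosphatase), Ctsk (the collagen-cleaving protease cathepsin K) and Atp6v0d2 (a proton pump subunit).

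The deposited matrix is a merge of libraries from both genotypes. Its 24203 barcodes end in 1 or 2, called barcode sets 1 and 2 here, and no label ties a set to a genotype. The matrix was therefore treated as 1 sample, no genotype comparison was made, and there are no replicates. Values of the sets are given side by side to show the spread within the matrix, and the call rule below also asks that both point the same way. After filtering, 15170 cells remained, 7157 in set 1 with a median of 10959 unique molecular identifiers (UMIs, counted RNA molecules) and 8013 in set 2 with a median of 9623. The sets share 14 barcode sequences among kept cells. Clustering gave 34 clusters, and a class is called "X-like" from marker genes. Osteoblast-like cells (328 cells) had 9 of 10 osteoblast markers raised, macrophage-like cells (758) 8 of 8, and the chondrocyte-like class (1379) 8 and 10 of 10 in its clusters. No cluster met the marker rule for osteoclasts. The macrophage-like cluster was led by Ccl4, Ifnb1, C1qa, C1qb and Rsad2, so chemokine and interferon genes stand among its leading genes beside the complement markers.

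The promoters of 3 genes are shown because their genes mark different sides of the system: Tnfsf11 the ligand source, Tnfrsf11a the responding cells and Ctsk a gene used by both stroma and resorbing cells. Each is the stretch of up to 250 bases before the annotated start (RefSeq, GRCm38.p6, the build of the matrix), 5′ to 3′ on the gene's strand. RefSeq windows matched 5 of the 10 genes by symbol: these and those of Acp5 and Oscar. Capitals mark matches on either strand to NFAT core GGAAA, AP-1 TGANTCA, PU.1 GAGGAA, Runx TGTGGT or TATA box TATAAA. The NFAT core and PU.1 patterns can overlap.
Tnfsf11, chr14:78308044-78308293, minus strand: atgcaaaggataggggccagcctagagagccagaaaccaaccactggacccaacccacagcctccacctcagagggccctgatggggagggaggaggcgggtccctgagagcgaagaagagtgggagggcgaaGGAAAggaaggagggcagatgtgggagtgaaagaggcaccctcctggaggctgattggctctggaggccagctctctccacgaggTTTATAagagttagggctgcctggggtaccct
Tnfrsf11a, chr1:105780473-105780717, plus strand: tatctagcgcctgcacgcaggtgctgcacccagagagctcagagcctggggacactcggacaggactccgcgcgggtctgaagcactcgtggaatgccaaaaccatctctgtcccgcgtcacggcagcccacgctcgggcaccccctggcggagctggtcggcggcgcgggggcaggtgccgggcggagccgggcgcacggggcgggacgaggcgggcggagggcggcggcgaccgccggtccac
Ctsk, chr3:95498960-95499209, plus strand: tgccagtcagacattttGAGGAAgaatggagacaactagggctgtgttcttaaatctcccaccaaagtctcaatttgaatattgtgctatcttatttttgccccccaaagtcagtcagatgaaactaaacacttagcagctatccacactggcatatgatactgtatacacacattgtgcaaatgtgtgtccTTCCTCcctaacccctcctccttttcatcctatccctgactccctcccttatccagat
The Tnfsf11 window held 1 NFAT core match and 1 TATA box match, read on the reverse strand 32 bases before the start. The Ctsk window held 2 PU.1 matches, and the Tnfrsf11a window, at 73.9% G and C, held no match to these patterns. Of all 32851 RefSeq promoter windows, 55.6% hold the NFAT core, 23.3% PU.1, 14% Runx, 12.4% TATA and 6.75% AP-1. A match to the NFAT core is thus common, and matches to PU.1 and TATA are less so. The share of windows with 2 PU.1 matches was not counted, and binding was not tested.

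The genes lie on separate chromosomes apart from Tnfrsf11b (chromosome 15, 54250619 to 54278484, minus strand) and Dcstamp (chromosome 15, 39745930 to 39760938, plus strand), per GENCODE M21. Tnfsf11 spans 78277445 to 78308043 on chromosome 14 and Tnfrsf11a 105780718 to 105847981 on chromosome 1. Ctsk lies at 95499256 to 95509362 on chromosome 3, Acp5 at 22126727 to 22135711 on chromosome 9, and Atp6v0d2 at 19876841 to 19922605 on chromosome 4. Ocstamp lies at 165393760 to 165400405 on chromosome 2 and Oscar at 3609813 to 3616157 on chromosome 7. Acp5 and Nfatc1 each overlap 1 noncoding gene on the other strand, and the other 8 overlap no annotated gene.

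Levels are UMIs of a gene per 1000000 UMIs of a class (CPM), with 95% exact Poisson intervals that cover counting error only. A gene was called higher or lower in a class where its CPM was at least 2 times or at most 0.5 times that of all other kept cells, provided that the gene had 100 UMIs, that the interval left out 1 and that sets 1 and 2 pointed the same way. Oscar, at 49 UMIs, could not be called.

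**Figure D1:**
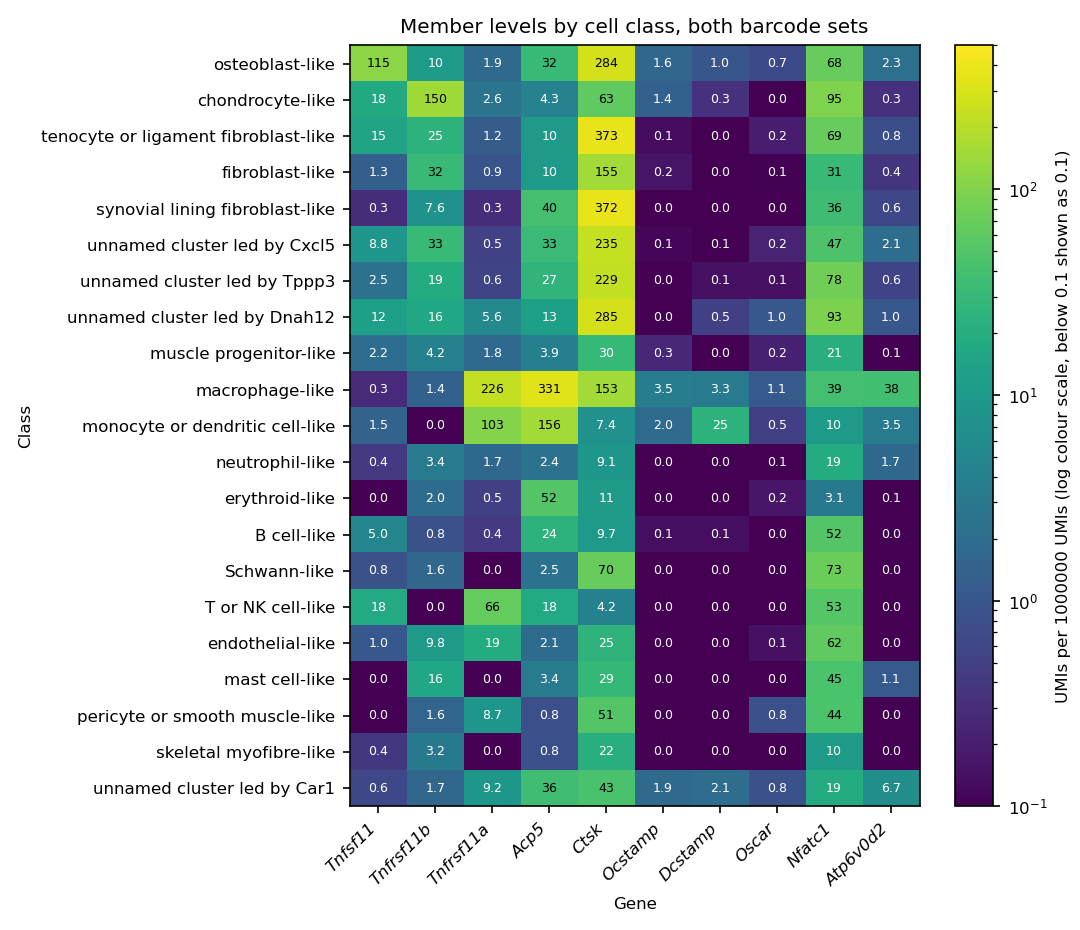
Levels of the 10 genes (columns) in each cell class (rows), in UMIs per 1000000 UMIs on a log colour scale, both barcode sets together. Tnfsf11 is brightest in osteoblast-like cells (115), Tnfrsf11b in chondrocyte-like cells (150), Tnfrsf11a in macrophage-like cells (226) and Ctsk in tenocyte-like or ligament fibroblast-like cells (373).

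The ligand was concentrated in osteoblast-like cells. Tnfsf11 reached 115 CPM (108 to 123) in osteoblast-like cells, which held 42.5% of its 1974 UMIs while being 328 of 15170 cells. Its level there was 138 CPM in set 1 and 81.0 CPM in set 2, and in each set the class stood first with an interval apart from the second. Against all other cells the ratio was 21.2 (19.4 to 23.2). T or NK cell-like cells (18.2 CPM, 9.68 to 31.1, from 13 UMIs), chondrocyte-like cells (17.8, 16.2 to 19.5) and tenocyte-like or ligament fibroblast-like cells (14.5, 12.7 to 16.6) came next, and their intervals overlap.

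In chondrocyte-like cells the sets lay on either side of the level in all other cells. Tnfsf11 stood at 29.4 CPM (26.7 to 32.3) in set 1 and 3.14 CPM (2.21 to 4.32) in set 2, and its ratio to all other cells was 2.60 in set 1 and 0.678 in set 2, so the class was not called. Muscle progenitor-like cells held 6.21 CPM in set 1 and 0.158 CPM in set 2. Whether sets differ in cells, genotype or library was not tested. In macrophage-like cells Tnfsf11 was 0.280 CPM, 3 UMIs in all, and in erythroid-like cells it was 0. Neutrophil-like cells are given below for comparison only and do not measure free RNA. Thinned to 2000 UMIs a cell, 16.9% of osteoblast-like cells (12.98 to 21.5, exact Clopper-Pearson, 9 shallower cells left out) had a Tnfsf11 UMI, against 0.155% of neutrophil-like cells. Without thinning the shares were 50.3% and 0.388%. The median depth was 15655 UMIs in osteoblast-like, 14698 in chondrocyte-like, 10559 in macrophage-like and 7064.5 in neutrophil-like cells.

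Tnfrsf11b, the decoy, had its maximum in cartilage. It reached 150 CPM (146 to 155) in chondrocyte-like cells, 176 in set 1 and 118 in set 2, and this class held 57.2% of its 7014 UMIs. The ratio to all other cells was 9.48. The chondrocyte-like clusters had like levels: 152 CPM in the cluster led by Msmp, Cytl1 and Prg4, which encodes lubricin, and 149 CPM in that led by Matn1 and Snorc. In fibroblast-like cells the level was 32.2 CPM (30.4 to 34.1), close to that in the unnamed cluster led by Cxcl5, Csf3, Saa3, Il1rl1 and Il6 (32.6), and in tenocyte-like or ligament fibroblast-like cells 24.7. Osteoblast-like cells were at 10.4 CPM (8.23 to 13.1), 4.15 in set 1 and 19.7 in set 2, and were called lower, at 0.314 times all other cells.

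The ratio of ligand to decoy UMIs ran in opposite directions in bone and cartilage cells. Both genes are read from 3′ tags, so no length scaling was applied, and capture can differ between genes. In osteoblast-like cells the ratio was 11.0 (8.72 to 14.2), 839 Tnfsf11 UMIs against 76 of Tnfrsf11b, and it was 33.4 in set 1 and 4.10 in set 2. In chondrocyte-like cells it was 0.118 (0.107 to 0.130), 0.167 in set 1 and 0.0266 in set 2. The intervals of these classes do not overlap in either set. Tenocyte-like or ligament fibroblast-like cells stood between, at 0.589 (0.497 to 0.697), and the cluster led by Cxcl5 at 0.270. The fibroblast cluster led by Csf2, Brinp3, Ptx3, Efemp1 and Pi16 held 2 Tnfsf11 UMIs and 648 Tnfrsf11b UMIs. Over all kept cells the ratio was 0.281. Of 561 cells with Tnfsf11 and 1654 with Tnfrsf11b, 109 had both, 19.4% and 6.59% of each.

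**Figure D2:**
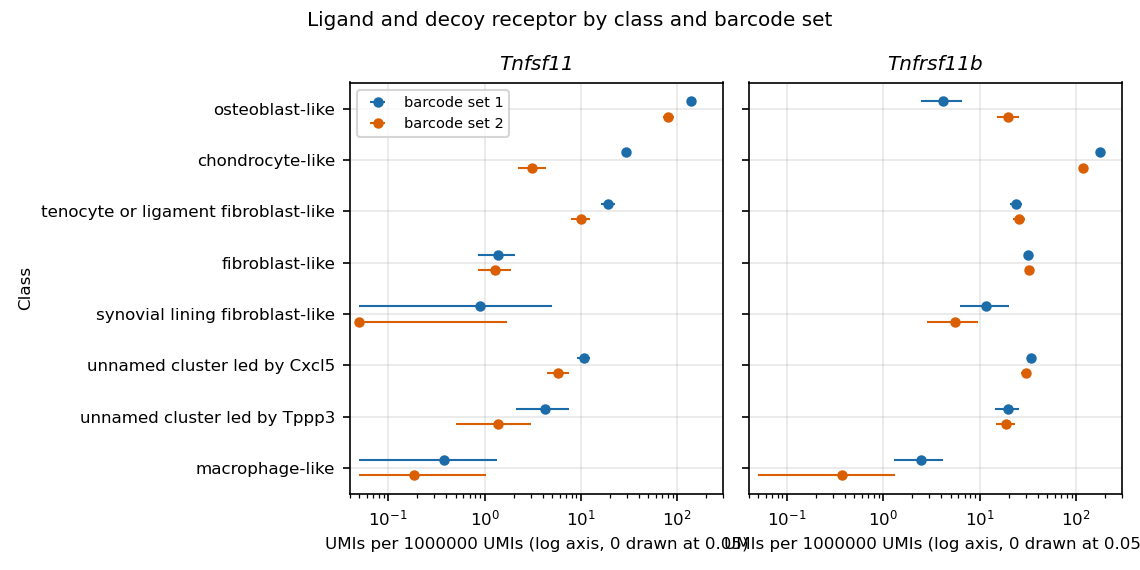
Tnfsf11 (left) and Tnfrsf11b (right) in 8 classes, in UMIs per 1000000 UMIs on a log axis, with points for barcode set 1 (blue) and set 2 (orange) and bars for 95% exact Poisson intervals. Osteoblast-like cells stand at 138 and 81.0 for Tnfsf11 and chondrocyte-like cells at 176 and 118 for Tnfrsf11b; values of 0 are drawn at 0.05.

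The receptor lay mostly in macrophage-like cells and not in all myeloid classes. Neutrophil-like cells had 1.74 CPM of Tnfrsf11a and were called lower (ratio 0.110). Tnfrsf11a reached 226 CPM (217 to 235) in macrophage-like cells, 181 in set 1 and 269 in set 2, and the class held 77.9% of its 3105 UMIs. The ratio to all other cells was 67.4. Monocyte-like or dendritic cell-like cells (109 cells) had 103 CPM, T or NK cell-like cells 65.7 CPM from 47 UMIs, and endothelial-like cells 18.7. The intervals of these 4 classes do not overlap. After thinning, 32.0% of macrophage-like cells had a Tnfrsf11a UMI, against 0.155% of neutrophil-like cells. In osteoblast-like cells the receptor was at 1.92 CPM, below all other cells by the call rule.

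Macrophage-like cells carried 5 of the 9 callable genes above the rule (Tnfrsf11a, Acp5, Ocstamp, Dcstamp and Atp6v0d2) and 2 below it (Tnfsf11 and Tnfrsf11b), where 9.54% and 45.3% of all 16898 callable genes were called higher and lower in this class. Osteoblast-like cells had 3 higher (Tnfsf11, Ctsk and Ocstamp) and 2 lower (Tnfrsf11b and Tnfrsf11a), where 6.2% and 21.4% of genes were called. Chondrocyte-like cells had 3 higher (Tnfrsf11b, Ocstamp and Nfatc1) and 4 lower (Tnfrsf11a, Acp5, Ctsk and Atp6v0d2), where 8.15% and 31.5% were called. The Ocstamp call in osteoblast-like cells rests on 1 cell, described below: without it the class holds 2 UMIs of Ocstamp, the ratio is 0.551, and 2 members are called higher and 5 lower. With all 8 cells described below left out, that ratio is 0.788 and 4 members are called lower. In macrophage-like cells 3 members were called higher without the 8 cells, 3 without set 1 and 3 without set 2. Ocstamp (ratio 9.08, 12.2 in set 1 and 5.61 in set 2) and Dcstamp (8.06, 3.81 and 19.7) then fell under 100 UMIs; without the 8 cells their ratios were 4.00 (2.02 to 7.34) and 4.51 (2.49 to 7.73).

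Nfatc1, which calcineurin activates, was found in many classes, and over both sets its highest value was in chondrocyte-like cells. It reached 94.97 CPM (91.3 to 98.7) there, 82.8 in set 1 and 110 in set 2, and a ratio of 2.50 to all other cells. The unnamed cluster led by Dnah12 (92.7, 79.8 to 107) had an interval that overlaps it, and was first in set 1 at 99.3 CPM. That led by Tppp3 (78.1) followed, then Schwann-like cells (73.0, 58.6 to 89.8, from 89 UMIs), tenocyte-like or ligament fibroblast-like (68.5) and osteoblast-like cells (68.0), whose intervals overlap. Macrophage-like cells had 38.9 CPM, and the ratio, 0.857, was not called. In 17.9% of chondrocyte-like cells thinned to 2000 UMIs there was an Nfatc1 UMI, against 4.43% of neutrophil-like cells. Within the neutrophil-like class the Nfatc1 level ran from 10.7 CPM in cluster 26 to 35.8 CPM in cluster 13.

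Acp5 was highest in macrophage-like cells, at 331 CPM (320 to 342), 284 in set 1 and 377 in set 2. Monocyte-like or dendritic cell-like cells had 156 CPM (139 to 174) and erythroid-like cells 51.8 (47.8 to 56.0). Within erythroid-like cells the level ran from 1.42 CPM in cluster 7 to 64.8 CPM in cluster 12, led by globin genes, and 160 CPM in the 83 cells of cluster 31, led by histone genes, which held 0 Ctsk UMIs. Synovial lining fibroblast-like cells had 39.9 CPM. Thinned, 23.6% of macrophage-like, 6.57% of erythroid-like and 0.361% of neutrophil-like cells had a UMI.

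Ctsk, whose product cleaves collagen in the acid space under an osteoclast, was most abundant in fibrous connective tissue. Tenocyte-like or ligament fibroblast-like (373 CPM, 363 to 383) and synovial lining fibroblast-like cells (372, 351 to 393) had levels with overlapping intervals, although the synovial class was 513 in set 1 and 300.03 in set 2. The cluster led by Dnah12 (285), osteoblast-like cells (284), the cluster led by Cxcl5 (235), that led by Tppp3 (229), fibroblast-like cells (155) and macrophage-like cells (153) followed. In tenocyte-like or ligament fibroblast-like cells 89.0% had a UMI and 46.8% after thinning, against 3.25% and 0.927% of neutrophil-like cells. In macrophage-like cells 12.8% had one.

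Atp6v0d2 had 600 UMIs, 67.8% of them in macrophage-like cells, at 37.9 CPM (34.3 to 41.8), 53.8 in set 1 and 22.4 in set 2. Dcstamp and Ocstamp had 118 UMIs each. Dcstamp was highest in monocyte-like or dendritic cell-like cells, at 24.7 CPM (18.4 to 32.6), with 3.26 CPM in macrophage-like cells. Ocstamp was 3.54 CPM in macrophage-like and 1.39 CPM in chondrocyte-like cells, where it came as 37 UMIs in 29 cells, 0.806 CPM in set 1 and 2.12 CPM in set 2. Oscar, with 49 UMIs in all, had 1.12 CPM in macrophage-like cells, and these 12 UMIs lay in 2 cells.

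Cells with several of the 6 resorption and fusion genes (Acp5, Ctsk, Ocstamp, Dcstamp, Oscar, Atp6v0d2) were rare. Of 15170 cells, 8575 had none, 5754 had 1, 794 had 2, 38 had 3, and 9 had 4 or more. Of the 47 cells with 3 or more, 14 were macrophage-like and 12 lay in the cluster led by Cxcl5. One of the 9 cells had only 8 such UMIs. The other 8 had 70 to 566, a threshold of 50 chosen after the values were seen. Of these 8, 6 were in set 1 and 2 in set 2, and 6 lay in the macrophage-like cluster. With 3 or more of the genes, 11 cells had at least 50 such UMIs. Among those left out, with 3 genes, were a cell in the cluster led by Cxcl5 with 255 and a macrophage-like cell with 86. The latter counts below among the other macrophage-like cells. The 8 cells were 0.0527% of kept cells (0.0228 to 0.104) and held 0.236% of UMIs, but 43.3% of Atp6v0d2, 36.7% of Oscar, 35.6% of Ocstamp, 23.7% of Dcstamp, 16.6% of Acp5 and 5.70% of Ctsk UMIs. These genes chose the cells, so their share is a description.

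**Figure D3:**
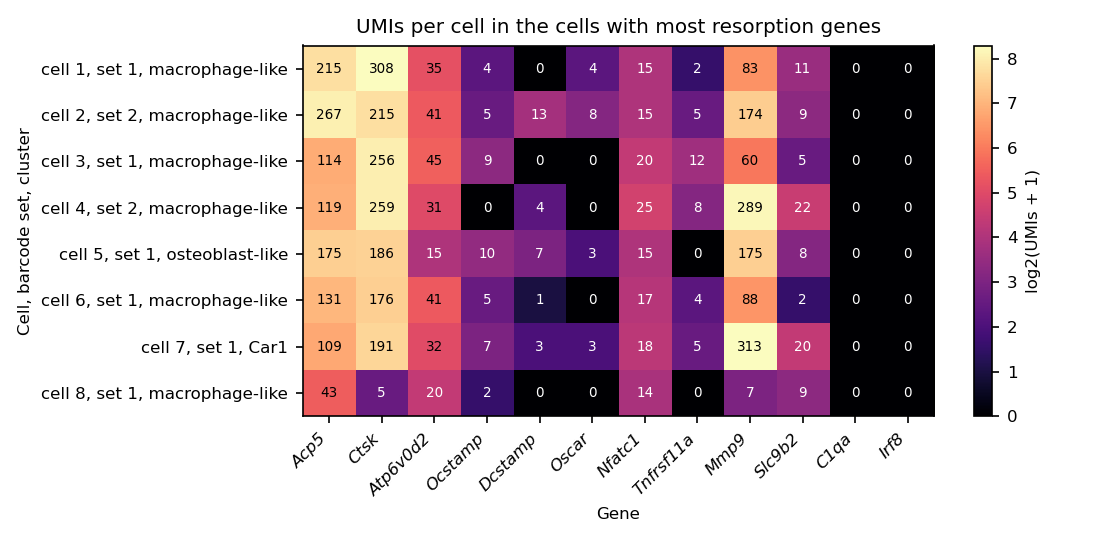
UMIs of each gene (columns) in each of the 8 cells (rows, with barcode set and cluster), coloured on a log2(UMIs + 1) scale. Acp5 runs from 43 to 267 and Ctsk from 5 to 308, while C1qa and Irf8 are 0 in all 8.

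Genes that did not choose the cells can be read in them. The 2 cells outside the macrophage-like cluster held 69.5% of the 508998 UMIs of the 8, so values pooled over all 8 follow them, and those of the 6 in the macrophage-like cluster, a choice made after the values were seen, are given too. Mmp9, a gelatinase of osteoclasts and neutrophils, was found in all 8, with 7, 60, 83, 88, 174, 175, 289 and 313 UMIs: 2336 CPM in the 8 and 4511 CPM in the 6, against 3.22 CPM in the other 752 macrophage-like cells. Slc9b2, a sodium-proton exchanger gene of osteoclasts, had 2 to 22 UMIs in each (169 CPM in the 8 and 373 in the 6, against 1.23), and Nfatc1 14 to 25 (273 and 682, against 29.4). Ckb, creatine kinase B, had 2 to 122 (809 and 1499, against 69.8). Rufy4 had 12 UMIs in 5 of the cells, Siglec15 3, and Calcr, the calcitonin receptor, 0. Other genes of attachment and resorption, pooled over all 8, were mixed. Clcn7 (ratio 0.429, 0.227 to 0.738) and Plekhm1 (0.333, 0.193 to 0.535) were called lower, and Itgav, Sh3pxd2a, Snx10 and Tcirg1 were not called. These calls follow the 2 deeper cells, with 135767 and 217827 UMIs, and none was made for the 6, with 18968 to 47801. Tcirg1 had 5 to 17 UMIs in each of the 6, and 14 and 8 in the other 2. Snx10 had 3 to 26, and 17 and 37. Clcn7 had 0 to 4, and 2 and 5, and Plekhm1 0 to 3, and 7 and 4. Car2, Itgb3, Mmp14, Ostm1, Slc4a2 and Src were called higher over the 8. The 1 cell in the cluster led by Car1 held 207 of the 216 Itgb3, 23 of the 30 Ostm1 and 46 of the 82 Src UMIs.

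Macrophage markers differed among themselves. C1qa, C1qb, C1qc, Mrc1 and Fcgr1 were 0 in all 8 cells, where 92.4%, 96.3%, 93.5%, 95.1% and 25.8% of the other macrophage-like cells had them. Taking 3 counts over the cells as the floor, C1qa was at least 57.7-fold lower in the 6 cells and at least 189-fold lower in the 8. Adgre1 had 1 UMI and Ms4a7 was in 2 cells, but Cd68, a lysosomal gene, was in all 8 with 122 UMIs. Irf8, a repressor of osteoclast formation, was 0 in all 8, against 58.1 CPM in the other macrophage-like cells. By the same floor Irf8 was at least 3.01-fold lower in the 6 cells and at least 9.86-fold lower in the 8, a weaker bound than for C1qa. Csf1r was in all 8, with 4 to 22 UMIs. Its level was 191 CPM in the 8 but 367 CPM in the 6, against 406, and the ratio for the 6 was 0.904 (0.684 to 1.17). Tnfrsf11a was in 6 of the 8, at 70.7 CPM, and in 5 of the 6, at 199 CPM against 226, a ratio of 0.883 (0.599 to 1.26). Over all callable genes of the comparison of the 8, 22.2% were higher and 27.2% lower. Of the members that played no part in choosing the cells, Nfatc1 and Tnfrsf11a were callable over the 8. Nfatc1 was called higher (ratio 9.28, 7.54 to 11.4) and Tnfrsf11a lower (0.313, 0.219 to 0.435). For the 6 the Nfatc1 ratio was 23.2 (18.4 to 29.0).

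Depth and partners of these cells vary. The cell in the osteoblast-like cluster had 135767 UMIs, with 9170 of Bglap (osteocalcin) and 14605 of Col1a1, and it ranked 24th of all kept cells in UMIs. The cell in the cluster led by Car1 had 217827 UMIs, with 12246 of Pf4, a platelet gene, 238 of Itga2b and 207 of Itgb3, and ranked 3rd. The 6 in the macrophage-like cluster had 18968 to 47801. Whether the 2 deepest hold more than 1 cell was not tested. The doublet caller Scrublet marked 3 of 7160 set 1 cells and 1 of 8014 set 2 cells, rates at which it has not worked, and doublets remain likely.

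**Figure D4:**
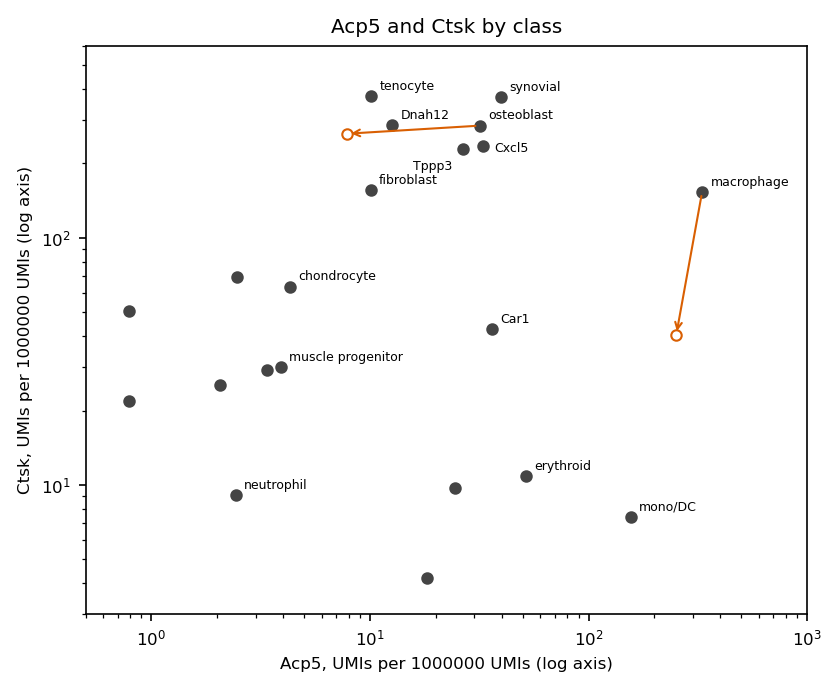
Acp5 (x) and Ctsk (y) in each class, in UMIs per 1000000 UMIs on log axes, both sets together, with class names shortened and 7 classes not named; orange arrows lead to open circles, the macrophage-like and osteoblast-like classes without the 8 cells. Macrophage-like Ctsk goes from 153 to 40.3 and Acp5 from 331 to 252.

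Without these cells Ctsk in the macrophage-like class went from 153 to 40.3 CPM, and its ratio to all other cells from 1.19 to 0.317. Atp6v0d2 went from 37.9 to 18.4 CPM, Ocstamp from 3.54 to 1.23 and Acp5 from 331 to 252, while Tnfrsf11a stayed at 226. Oscar was then 0. In osteoblast-like cells Acp5 went from 31.7 to 7.84 CPM, since 175 of its 231 UMIs were in that 1 cell, and Ctsk from 284 to 264. Among the other 752 macrophage-like cells, 531 had Tnfrsf11a, 310 Acp5 and 242 both.

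The other genes of the pathway were read by 4 lists. Of the 17 genes of stromal signals and inputs to Tnfsf11, 5 were called higher and 8 lower in osteoblast-like cells, where 6.2% and 21.4% of all callable genes were, with a median log2 ratio of -0.86 against -0.18 over all callable genes. The higher ones were Vdr, the vitamin D receptor (27.3 CPM, ratio 16.5), Wnt16 (48.1, 13.3), Pth1r, the parathyroid hormone receptor (116, 4.66), Wnt5a (49.9, 3.37) and Sema3a (98.5, 2.46). The lower ones held the cytokines Il1b, Il6, Il11, Tnf and Osm, and Csf1, Il34 and Il1r1. The most abundant of the list over all cells were Csf1, the growth factor of the macrophage lineage, with its highest level in the cluster led by Cxcl5 (839 CPM), Il1b in monocyte-like or dendritic cell-like cells (8677 CPM) and Il6 in mast cell-like cells (969 CPM). Mast cell-like cells had 663 CPM of Il6 in set 1, where the cluster led by Cxcl5 was higher, and 1535 in set 2.

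Of the 16 genes of receptors and adaptors, 9 were called higher and 1 lower (Lgr4, a second receptor for the ligand) in macrophage-like cells, where 9.54% and 45.3% of all callable genes were, with a median log2 ratio of 1.14 against -0.91 over all callable genes. Trem2 (101 CPM, ratio 181), Csf1r (405, 98.6) and Fcer1g (1013, 7.31) had the highest ratios. Cd44, Nfkb1 and Tyrobp had the most UMIs and were highest in the cluster led by Cxcl5 (1058 CPM), mast cell-like (1567) and neutrophil-like cells (1546). In osteoblast-like cells 7 of the 16 were lower and 0 higher, where 21.4% and 6.2% of all callable genes were, and the median log2 ratio was -0.88 against -0.18.

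Of the 11 transcription factors, 8 were called higher and 0 lower in macrophage-like cells, beside 9.54% and 45.3% of all callable genes. The median log2 ratio was 2.35 against -0.91. Prdm1 (42.1 CPM, ratio 12.6) and Spi1, encoding PU.1 (482, 9.93), promote osteoclast formation, whereas Irf8 (57.2, 4.11) represses it. In osteoblast-like cells 2 were called higher and 4 lower (Irf8, Mitf, Prdm1 and Spi1), where 6.2% and 21.4% of all callable genes were. The median log2 ratio was -0.68 against -0.18, and without the 1 cell above 2 were higher and 3 lower. Fos (587 CPM, ratio 2.25) was among the higher ones, at 4.16 in set 1 and 1.08 in set 2. The most abundant factors over all cells were Fos, Id2 and Jdp2.

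Of 16 genes of attachment and resorption, 15 were callable. In macrophage-like cells 7 were higher and 5 lower, beside the same 9.54% and 45.3%, with a median log2 ratio of 0.99 against -0.91. Plekhm1 (99.5 CPM, ratio 6.77), Clcn7, a chloride transporter of the resorption space (59.3, 6.43) and Tcirg1, a proton pump subunit (87.8, 5.75), had the highest ratios. Calcr, Car2, Itgb3, Mmp14 and Sh3pxd2a were lower. Slc9b2 was among the higher ones through the 6 cells above, which held 58 of its 71 UMIs in the class; without the 8 cells its ratio was 0.890, and 6 of the list were higher and 6 lower. In osteoblast-like cells 2 were higher and 4 lower (Calcr, Car2, Itgb3 and Snx10), where 6.2% and 21.4% of all callable genes were. The median log2 ratio was -0.19 against -0.18. The higher ones were Mmp14, a membrane metalloproteinase (721 CPM, ratio 3.09), and Mmp9 (157, 2.71). Without the 1 cell above, Mmp9 was 136 CPM, and 2 of the list were higher and 6 lower. Car2, carbonic anhydrase, was highest in erythroid-like cells (3354 CPM), and Itgav in the cluster led by Cxcl5 (232), though in set 1 macrophage-like cells were first for Itgav.

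As a description over the 34 clusters, which share libraries and depth, the genes with levels most like each member's were named (Pearson's r of log2(CPM + 10), of 15179 genes). For Tnfsf11 they were Pdzrn4 (0.85), Rpl39l (0.83) and Gm45833 (0.83), and for Tnfrsf11b Ngef (0.89), Pappa (0.88) and Ak4 (0.87). For Tnfrsf11a they were Ms4a6b (0.89), Il10 (0.88) and Heatr9 (0.88), and for Atp6v0d2 Cd163 (0.93), Ms4a14 (0.93) and Ifnb1 (0.92). Ctsk followed Lrp1 (0.91), Thbs3 (0.91) and Itgb5 (0.91), Nfatc1 Gmds (0.86), Cers5 (0.85) and Rab33b (0.84), and Acp5 Camkk2 (0.81), Necap2 (0.73) and Pml (0.70). Tnfsf11 and Tnfrsf11b had r = 0.40, Tnfrsf11a and Atp6v0d2 0.70, and Acp5 and Ctsk 0.13.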

How the data were processed

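Single-cell RNA-seq of knee joint cells at postnatal day 7 was deposited as 1 matrix of whole-number UMI counts. Per the labels' protocols the authors prepared 3′ libraries with 10x v3 chemistry in 2 experiments, with 1 and 2 libraries per genotype, and merged them using Cell Ranger 7.0.0. The submitters' processing notes name mm10 as the build. The sources used here do not say whether introns were counted.

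The cell filter asked for 500 genes, 1000 UMIs and no more than 10% mitochondrial UMIs, and Scrublet calls were removed. Counts scaled to 10000 per cell, 2000 variable genes, 30 components (rounded to 4 decimals), 15 neighbours and Leiden clustering at resolution 1 (scanpy 1.11.5, leidenalg 0.10.2, seed 1) gave the clusters; the members, pathway genes, collagens, mitochondrial, ribosomal and sex-linked genes were left out. A cluster took the class with the highest mean marker log2 fold if median and mean were at least 1 and 3 markers, each in 10% of cells, reached 1, with 10 CPM added. The condition on the mean was added after clusters were seen, because the cluster led by Car1 would otherwise have been called monocyte-like. CPM, ratios (exact conditional binomial interval) and shares (Clopper-Pearson) carry 95% intervals, for counting error alone. The call rule was tested on simulated counts. With cells that are not replicates, p-values were left out. Members and lists were chosen with earlier results of these data known. Named genes are the members, the 3 most abundant genes of each list, the 3 highest ratios among those called in osteoblast-like and macrophage-like cells, the 3 genes most like each member with 200 UMIs, genes leading unnamed clusters, class markers and, in cells with 3 or more resorption genes, the resorption list and osteoclast markers. Other genes named, among them those leading named clusters, Bglap, Col1a1, Pf4, Itga2b and the list members given in full, were chosen after their values were seen. A gene of the lists is not reported here.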

Additional observations from a re-analysis of the deposited data

Results flagged for a closer look

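The 9033 barcodes outside the cell filter, which no comparison uses, held UMIs of 7 members above the 3 counts that a count of 0 allows. Ctsk had 375 UMIs there (8.98 CPM), Nfatc1 258, Acp5 128, Tnfsf11 50, Tnfrsf11b 47, Tnfrsf11a 37 and Atp6v0d2 6. They were 0.666% to 2.58% of each gene's UMIs in all barcodes. Among these barcodes, 1 held UMIs of 4 or more resorption genes.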

How the results depend on the processing

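No paired analysis was possible because the matrix carries no label that ties cells to genotypes or replicates. Osteoblast-like values could not be given at resolution 0.5 or with 15 components, nor monocyte-like or dendritic cell-like ones at resolution 0.5, since those settings named no such cluster. Tnfsf11 in osteoblast-like cells (ratio 16.1 to 35.0), Tnfrsf11b in chondrocyte-like cells (7.23 to 11.4) and Tnfrsf11a in macrophage-like cells (48.9 to 90.1) kept direction and call in every alternative that gave a value. The ligand to decoy ratio stayed between 4.10 and 33.4 in osteoblast-like cells and 0.0266 and 0.167 in chondrocyte-like cells. Members called higher in macrophage-like cells were 3 without barcode set 1, 3 without set 2 and 3 without the 8 cells, where Ocstamp (ratio 4.00) and Dcstamp (4.51) stayed higher but fell under 100 UMIs. Members called lower there were 4 with 1000 genes and 2000 UMIs and 4 with 5% mitochondrial UMIs; in osteoblast-like cells they were 4 without the 8 cells, and in chondrocyte-like cells 2 at resolution 0.5. Cells with 3 or more resorption genes were 18 without set 1, 29 without set 2 and 7 when thinned to 2000 UMIs; 841 had 2 or more and 9 had 4 or more. Cells with 4 or more were 2 without set 1, 2 when thinned and 1 without the 8 cells. Some directions turned: Tnfsf11 in chondrocyte-like cells without set 1 (ratio 0.678), Ocstamp in osteoblast-like cells without the 8 cells (0.788), and the ligand to decoy ratio in tenocyte-like or ligament fibroblast-like cells at resolution 0.5 (2.75) and with 15 components (2.35). Of the other single-gene ratios, 23 alternative values lost a call and 2 gained one, mostly for Ocstamp and Dcstamp. The causes were not tested.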
